A study of Mus musculus with 10 samples.

Results

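Serum response factor (SRF) and its coactivators were followed through whole embryonic mouse kidneys by RNA-seq, as the 4 genes Srf, Myocd, Mrtfa and Mrtfb. They were chosen by gene symbol and are 4 of the 35663 entries of the expression table, each with 1 row. The study deleted netrin-1 (Ntn1), a secreted guidance protein, from the kidney stroma and examined mural cells and arteries. Kidneys of C57/b6 embryos were taken at E13.5. Wild-type kidneys (n=4) were labelled with no Cre and no floxed allele. Foxd1GC control kidneys (n=3, genotype Foxd1-Cre) carried the allele that places Cre at the Foxd1 locus. The study counts this allele as the loss of 1 copy of Foxd1. Ntn1SPKO kidneys (n=3, genotype Foxd1-Cre; Ntn1c/c) carried that allele together with the conditional Ntn1 alleles, so the Cre allele was shared by controls and mutants and absent from wild-type kidneys. Cre from this allele acts in Foxd1-expressing stromal progenitors and their descendants, whereas the RNA came from all cells of the kidney, and in such samples fewer cells of a type and less RNA per cell cannot be told apart. The labels do not say whether libraries of a group came from separate animals, so p-values measure the spread between these libraries.

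SRF is a DNA-binding factor that recognises the CArG box, a short sequence found near many smooth muscle, cytoskeletal and growth-response genes, and it needs partner proteins to activate them. Myocardin, encoded by Myocd, is a coactivator restricted mainly to cardiac and smooth muscle lineages, where it drives contractile genes. The myocardin-related factors encoded by Mrtfa and Mrtfb are expressed broadly, are held in the cytoplasm by monomeric actin and enter the nucleus when actin assembles, while ternary complex factors such as Elk1 compete with them for SRF, and Klf4 opposes myocardin at smooth muscle genes.

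In the GRCm38 assembly Myocd (ENSMUSG00000020542.18) lies on the minus strand at chr11:65176561-65269989. Srf (ENSMUSG00000015605.6) lies on the minus strand at chr17:46548329-46556175. Mrtfa (ENSMUSG00000042292.16) lies on the minus strand at chr15:81012281-81190757, and Mrtfb (ENSMUSG00000009569.14) on the plus strand at chr16:13256481-13417529. All 4 are annotated as protein-coding genes. Their longest coding sequences are 2949 bases for Myocd, 1512 for Srf, 2892 for Mrtfa and 3273 for Mrtfb.

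The consensus CArG box (CC, 6 bases of A or T, GG) was looked for in the 250 bases before each RefSeq start site (GRCm38.p6). It reads the same on both strands, so a single search covers them. Of 32851 such windows in the genome, 1.47% held at least 1 box and 6 windows (0.0183%) held 2 or more. The Srf window was among these 6, with boxes beginning 82 and 62 bases before the start site, and is shown because the gene encodes the factor that binds this sequence. The Mrtfa windows (2) and the Mrtfb windows (3) held none, and no window was used for Myocd. The 120 bases with both Srf boxes, on the minus strand at chr17:46556193-46556312 within the body of Gm26904 on the plus strand and outside annotated exons, follow, with the boxes in capitals.
Srf: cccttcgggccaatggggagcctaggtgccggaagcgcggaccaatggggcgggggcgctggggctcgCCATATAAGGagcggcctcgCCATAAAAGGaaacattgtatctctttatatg

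Among SRF target genes with a window, an exact match to the consensus was present in 1 of 14 smooth muscle genes. It was present in 4 of 15 cytoskeletal genes and 2 of 8 immediate early genes, against 1.62% of all 27025 genes with a window. The smooth muscle gene was Myl9, which encodes a regulatory myosin light chain. Cytoskeletal examples (3) are shown with it, each with 15 bases on either side of the box in capitals, because their levels are compared with those of Myocd further on. Vcl encodes vinculin, a protein of focal adhesions, Cnn2 encodes calponin 2, and Filip1l encodes a filamin A-interacting protein. All 4 stretches lie on the plus strand, Myl9 at chr2:156775288-156775327, Vcl at chr14:20929156-20929195, Cnn2 at chr10:79988529-79988568 and Filip1l at chr16:57549165-57549204. The Filip1l stretch falls outside exons in the bodies of Filip1l and, on the minus strand, Cmss1, and the other 3 lie in no annotated gene. Boxes with a differing base, or lying outside these windows, were not counted. The Acta2 window, counted as without a box, held ccctatatgg and ccttgtttgg, each differing from the consensus at 1 base. Tagln and Myh11 were among the smooth muscle genes without a window. The counts therefore do not show that smooth muscle genes lack CArG boxes. A match describes the letters of the window and was not tested as a site of binding.
Myl9: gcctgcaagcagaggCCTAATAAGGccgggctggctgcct
Vcl: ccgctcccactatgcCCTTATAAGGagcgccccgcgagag
Cnn2: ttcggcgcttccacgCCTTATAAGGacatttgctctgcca
Filip1l: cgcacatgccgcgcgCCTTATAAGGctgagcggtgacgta

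Levels are given as FPKM, fragments scaled to transcript length and to the size of the library, and the table states no read depth. All 12 kidney markers were at 1 FPKM or more in every library, with summed levels from 494 to 645 FPKM. The lowest sum was that of Foxd1GC control replicate 3. In it Ret was at 4.09, Calb1 at 16.4 and Wnt9b at 1.64 FPKM. The other libraries held at least 14.1, 57.4 and 3.55 FPKM of these genes. Six2 (96.4 FPKM) and Cited1 (70.1 FPKM) were instead highest in this control. Ntn1 was at 31.9, 28.3, 27.1 and 46.3 FPKM in wild-type, at 40.7, 24.2 and 51.4 in control and at 16.3, 13.1 and 10.7 in Ntn1SPKO libraries, so every mutant library lay below every other. Y-linked transcripts were present in 1 wild-type library (replicate 3), 1 control (replicate 2) and all 3 mutants. Wild-type replicate 3 had a summed FPKM of 1002638, the highest of the 10 libraries, where the lowest was 795829. In Foxd1GC control replicate 3 the 14 skeletal muscle markers summed to 817 FPKM, against 12.9 to 178 FPKM in the other libraries.

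Of the 4 genes, Myocd separated the Foxd1GC controls from the other groups, and Srf, Mrtfa and Mrtfb overlapped between the groups. Srf was the highest per coding length. It was at 23.5, 22.4, 14.8 and 19.1 FPKM in wild-type, at 19.2, 22.1 and 20.9 FPKM in Foxd1GC control and at 21.8, 20.3 and 21.0 FPKM in Ntn1SPKO libraries. Mutants and controls overlapped, and wild-type replicate 3 held the lowest value. The log2 fold change in Ntn1SPKO against control kidneys was 0.02 (limma, 95% interval −0.16 to 0.21, adjusted p=0.907, exact permutation p=0.8).

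Mrtfb followed in every library. It was at 15.5, 15.7, 10.4 and 13.7 FPKM in wild-type, at 13.9, 14.3 and 11.3 FPKM in control and at 14.7, 13.97 and 14.6 FPKM in Ntn1SPKO libraries. The low values were those of wild-type replicate 3 and control replicate 3, and the groups overlapped. Against controls, the log2 fold change in mutants was 0.13 (limma, 95% interval −0.12 to 0.39, adjusted p=0.564, exact permutation p=0.2), and it was 0.029 without control replicate 3.

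Mrtfa was at 9.62, 8.83, 6.90 and 11.01 FPKM in wild-type libraries. It was at 10.7, 9.15 and 10.7 FPKM in control and at 8.47, 8.57 and 9.61 FPKM in Ntn1SPKO libraries. A single mutant, replicate 3, lay above the lowest control, and wild-type replicate 3 was again the lowest library. The log2 fold change in mutants against controls was −0.20 (limma, 95% interval −0.44 to 0.05, adjusted p=0.459, exact permutation p=0.2).

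Myocd was the lowest of the 4. It was at 1.98, 1.78, 1.35 and 0.882 FPKM in wild-type, at 3.61, 2.62 and 2.60 FPKM in Foxd1GC control and at 1.48, 1.12 and 1.68 FPKM in Ntn1SPKO libraries. All 3 controls lay above all other libraries, and the 3 mutants lay within the range of the wild-type libraries. Ntn1SPKO kidneys averaged 1.42 ± 0.285 FPKM (SD, n=3), controls 2.94 ± 0.577 FPKM (n=3) and wild-type kidneys 1.499 ± 0.488 FPKM (n=4), so the control mean was 2.07 times the mutant mean. The log2 fold change in mutants against controls was −0.9997 (standard error 0.22, 95% interval −1.53 to −0.47, unadjusted p=0.00344), and limma's adjusted p over 14550 genes was 0.447. The exact permutation p was 0.1, the smallest that 3 against 3 libraries allow.

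**Figure D1:**
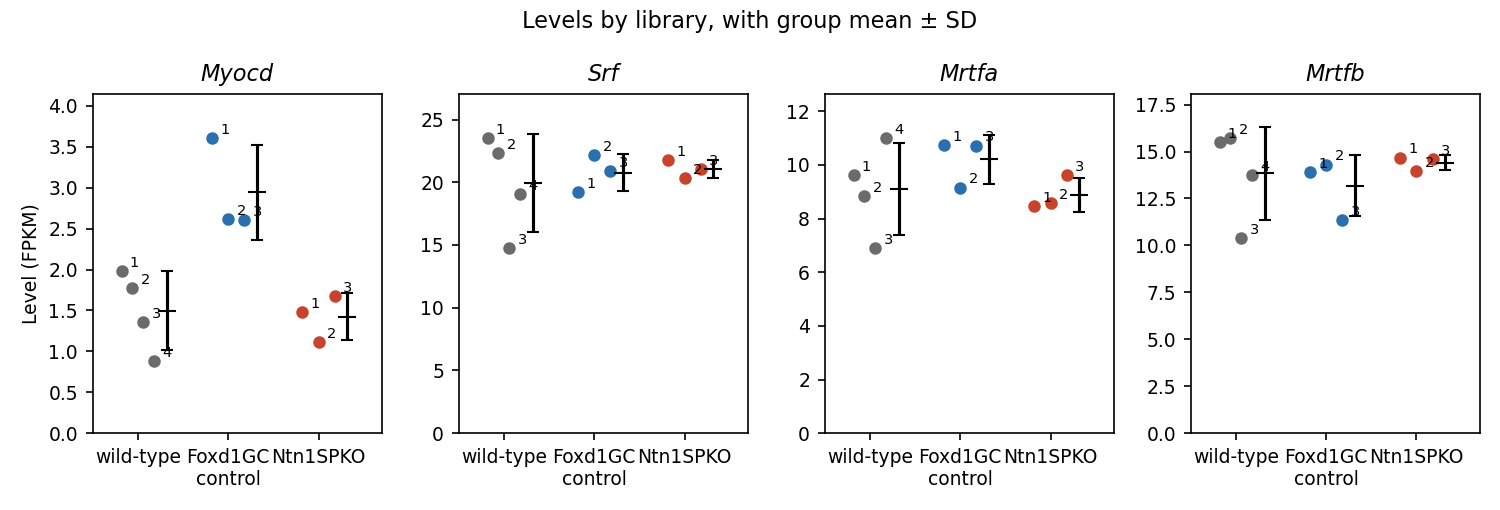
Level (FPKM, vertical axes starting at 0) of Myocd, Srf, Mrtfa and Mrtfb in each library, numbered by replicate, with the group mean ± SD beside the points. The Foxd1GC control libraries sit at 2.60 to 3.61 FPKM for Myocd, above all wild-type and Ntn1SPKO libraries, while the groups overlap for the other genes.

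Against wild-type kidneys the values of Myocd read differently in controls and in mutants. Both comparisons use the same wild-type libraries, and both comparisons of the controls use the same control libraries, so they are given side by side. Myocd had a log2 fold change of 0.97 in Foxd1GC control against wild-type kidneys (limma, 95% interval 0.31 to 1.63, unadjusted p=0.00978, adjusted p=0.665, exact permutation p=0.0571). In Ntn1SPKO against wild-type kidneys it was −0.03 (95% interval −0.70 to 0.64, adjusted p=0.992, exact permutation p=0.943). The smallest exact p for 3 against 4 libraries is 0.0286. The largest separation of Myocd was thus between the 2 genotypes with Cre and between control and wild-type kidneys, and in neither did it pass an adjusted p of 0.1.

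For Srf the log2 fold change was 0.10 in mutant against wild-type kidneys (95% interval −0.26 to 0.46) and 0.08 in control against wild-type kidneys (−0.30 to 0.45). Mrtfa had values of −0.01 (−0.37 to 0.34) and 0.18 (−0.19 to 0.55), and Mrtfb of 0.08 (−0.26 to 0.41) and −0.06 (−0.44 to 0.32). These intervals leave out a 2-fold change in either direction for all 3 genes, and their limma adjusted p lay between 0.732 and 0.993.

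**Figure D2:**
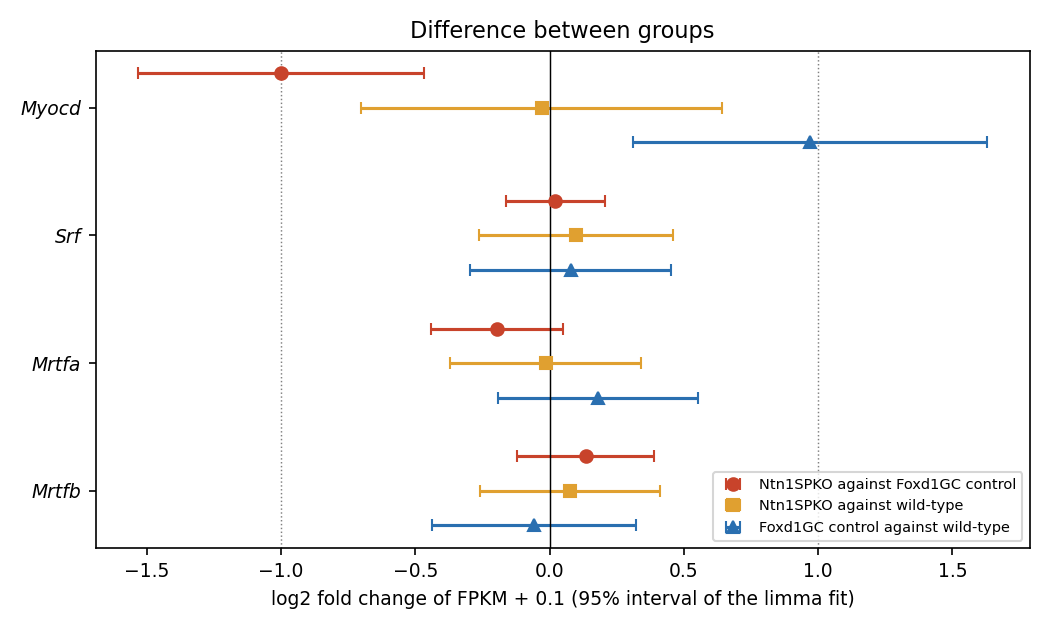
Log2 fold change (horizontal axis, FPKM + 0.1) of each gene in the 3 comparisons, with the 95% interval of the limma fit; dotted lines mark a 2-fold change. The interval of Myocd leaves out 0 in both comparisons that include the Foxd1GC controls (−1.53 to −0.47 and 0.31 to 1.63) and spans it for mutants against wild-type.

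Calling required a change of 2-fold or more together with an adjusted p under 0.1, and none of the 4 genes met it in any comparison. The share called among all genes tested was 0.0550% in mutant against control, 0.0485% in mutant against wild-type and 0.00685% in control against wild-type kidneys. An unadjusted p under 0.05 was reached by 1 of 4 (Myocd) in mutant against control kidneys, where 10.7% of all genes reached it, by 0 of 4 in mutant against wild-type (5.76% of all genes) and by 1 of 4 (Myocd) in control against wild-type kidneys (7.06%). Groups did not overlap for 1 of 4 (Myocd), 0 of 4 and 1 of 4 (Myocd), where the share among all genes was 19.9%, 7.10% and 8.09%. By p Myocd ranked 88 of 14537 tested symbols in mutant against control kidneys.

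Myocd was highest in the controls within either sex as well as without the libraries that stood apart. Among libraries with Y-linked transcripts, Myocd was at 2.62 FPKM in the control, at 1.12 to 1.68 FPKM in the 3 mutants and at 1.35 FPKM in the wild-type library. Among those without, it was at 2.60 and 3.61 FPKM in the controls and at 0.882 to 1.98 FPKM in the 3 wild-type libraries. With control replicate 3 and wild-type replicate 3 both left out, the log2 fold change of Myocd was −1.08 in mutants against controls and 1.02 in controls against wild-type kidneys. With embryo sex as a covariate these were −0.85 (limma adjusted p=1) and 0.98 (adjusted p=0.436), and the first of them rests on control replicate 2, the only control with Y-linked transcripts.

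The low values of wild-type replicate 3 were seen for Srf, Mrtfa and Mrtfb, and this library also differed from the others by coding length. On the log2 scale, Srf lay −0.51, Mrtfa −0.47, Mrtfb −0.44 and Myocd −0.40 from the mean of the other 9 libraries. Over 4001 genes with a coding length of at least 2000 bases the median difference in this library was −0.20, and over 2620 genes under 750 bases it was 0.30, whereas in the other 9 libraries these medians stayed between −0.08 and 0.07. The 4 genes lay further below 0 than that median for long genes, Srf with the shortest coding sequence most, and the part of the shift in their values was not tested. Without this library, the log2 fold change in mutant against wild-type kidneys was −0.04 for Srf, −0.14 for Mrtfa and −0.055 for Mrtfb. In control against wild-type kidneys it was −0.058 for Srf, 0.057 for Mrtfa and −0.19 for Mrtfb without this library, and −0.064, 0.020 and −0.084 without control replicate 3 as well. Wild-type replicate 3 is also the only wild-type library with Y-linked transcripts, and with embryo sex as a covariate Srf and Mrtfb had log2 fold changes of 0.51 (limma adjusted p=0.045) and 0.47 (adjusted p=0.030) in mutant against wild-type kidneys, values that rest on this 1 library.

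**Figure D3:**
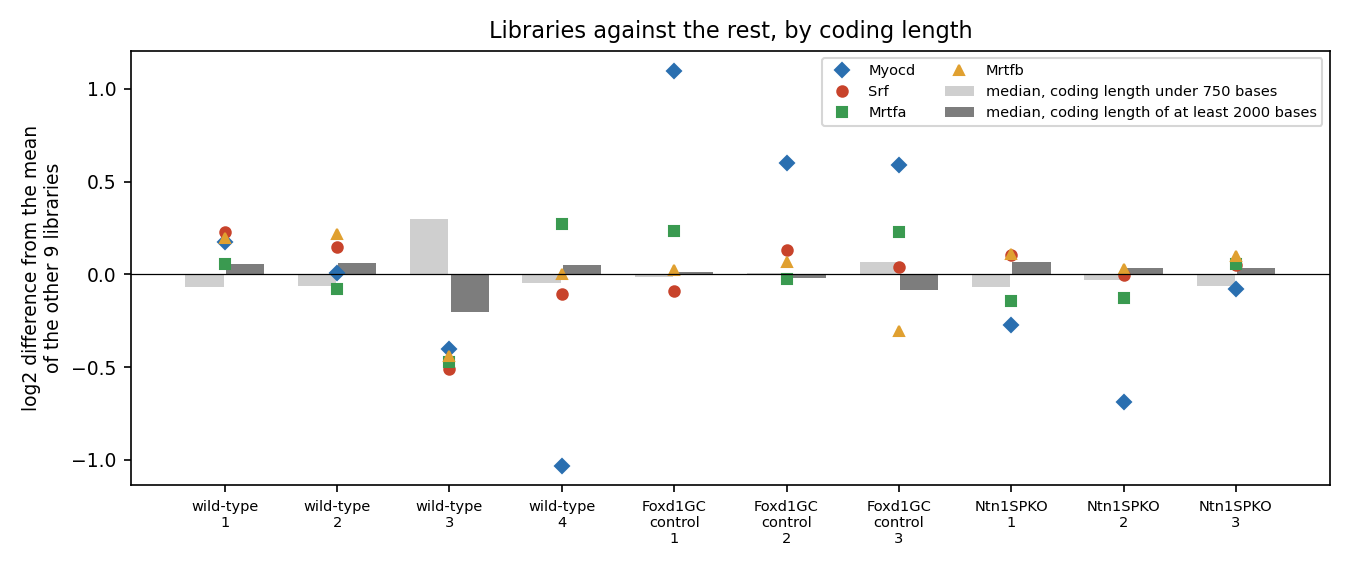
Log2 difference of each library from the mean of the other 9 (vertical axis): bars give the median over genes of short (under 750 bases) and long (at least 2000 bases) coding length, and points give the 4 genes. Wild-type replicate 3 has bars at 0.30 and −0.20 with all 4 points below 0, and the 3 Foxd1GC controls hold the highest Myocd points.

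Shares among the coactivators largely restate the level of Myocd, since Mrtfa and Mrtfb overlapped between the groups. The order Srf, Mrtfb, Mrtfa, Myocd held in 10 of 10 libraries, and the mean level of Myocd stood at percentile 17.0 of 14520 genes, that of Mrtfa at 42.5, Mrtfb at 52.3 and Srf at 62.7. Summed over Myocd, Mrtfa and Mrtfb, the coactivators were at 24.4 ± 3.91 FPKM in wild-type (n=4), 26.3 ± 1.83 in control (n=3) and 24.7 ± 1.11 in Ntn1SPKO kidneys (n=3). Myocd made up 7.31%, 6.75%, 7.26% and 3.44% of this sum in wild-type libraries, 12.8%, 10.05% and 10.6% in controls and 5.99%, 4.72% and 6.49% in mutants. The control shares lay above all others, and wild-type replicate 4 held the lowest share. Mrtfb was the largest part in every library. It was at 46.0% to 54.9% of the sum in controls and 56.4% to 59.6% in mutants. The wild-type libraries, at 53.6% to 59.7%, overlapped with both.

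Correlations across the 10 libraries, which share group and library quality, are given with and without wild-type replicate 3. Pearson r was 0.80 for Srf and Mrtfb, 0.45 for Srf and Mrtfa and 0.29 for Mrtfa and Mrtfb, and without this library (n=9) it was 0.47, −0.56 and −0.55. Without control replicate 3 as well (n=8), r was 0.86 for Srf and Mrtfb. For Myocd r was 0.27 with Srf, 0.32 with Mrtfa and 0.033 with Mrtfb, and 0.17, 0.24 and −0.19 without the library. The genes whose levels were most like those of Myocd, among the 13168 genes that averaged 1 FPKM or more, were Lrfn5 (r=0.96), Gas6 (0.93), Arhgap44 (0.91), S1pr3 (0.91), Cygb (0.91), Plekho2 (0.91), Zdhhc17 (0.90) and Pknox2 (0.89). Lrfn5, a synaptic adhesion protein, was at 2.44 to 3.44 FPKM in controls, 1.53 to 2.28 in wild-type and 1.41 to 2.12 in mutants. Gas6, a ligand of the TAM receptor kinases, was at 7.33 to 8.71, 4.61 to 6.69 and 5.06 to 7.20 FPKM. Both had all controls above all other libraries. S1pr3, a receptor for sphingosine-1-phosphate, overlapped between the groups, with 21.9 to 26.1 FPKM in controls, 17.6 to 23.6 in wild-type and 19.7 to 22.2 in mutants.

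The genes most like Srf were Epb41l2 (r=0.95), Klhl25 (0.94) and Sema6d (0.94), those most like Mrtfa were Ephb1 (0.95), Stard9 (0.95) and Snx33 (0.94), and those most like Mrtfb were Col4a1 (0.98), Rnf26 (0.97) and Parp4 (0.97). Without wild-type replicate 3 these r fell to between 0.76 and 0.95, and for each of the 9 genes the lowest value of the 10 libraries was in the wild-type group. Col4a1, a chain of basement membrane collagen, ranged from 136 to 248 FPKM in wild-type, 152 to 199 FPKM in control and 198 to 213 FPKM in mutant libraries.

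The competing and cooperating factors of SRF were measured beside its coactivators. The 3 ternary complex factors were all tested, with 0 called and none at an unadjusted p under 0.05, and a median log2 fold change of 0.06 in mutant against control kidneys (0.01 over all genes tested). Elk4 was at 50.9, 47.1 and 51.2 FPKM in controls, 61.8, 51.4 and 56.7 in mutants and 34.8 to 65.5 in wild-type libraries. Its mutants thus lay just above its controls, and the wild-type libraries spanned both. Elk3 ranged from 33.5 to 39.1 FPKM and Elk1 from 8.83 to 10.8 FPKM over the 10 libraries.

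MEF2 factors are DNA-binding partners of myocardin in heart muscle, and 3 of 4 were tested. Mef2c was at 26.2, 25.4, 19.1 and 20.8 FPKM in wild-type, 17.0, 21.6 and 31.3 in control and 18.6, 14.05 and 19.2 in mutant libraries. The mutants overlapped with both other groups, with log2 fold changes of −0.40 against controls (limma adjusted p=0.483) and −0.40 against wild-type kidneys (unadjusted p=0.031, adjusted p=0.782). Mef2a and Mef2d had log2 fold changes within 0.13 of 0 in all 3 comparisons.

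Of 18 partners and repressors of myocardin or SRF, 0 were called in any comparison. An unadjusted limma p under 0.05 was reached by 2 of 18 in mutant against control kidneys, where 10.7% of all genes reached it. It was reached by 3 of 18 in mutant against wild-type (5.76% of all genes) and by 1 of 17 in control against wild-type kidneys (7.06%). Mutants and controls did not overlap for 2 of 18, where the share among all genes was 19.9%. Msx2, a homeobox factor that binds SRF and myocardin and represses smooth muscle genes, was at 0.919, 1.28 and 1.44 FPKM in mutants, 0.466, 0.518 and 0.115 in controls and 0.687, 0.510, 0.456 and 0.372 in wild-type libraries. All mutants lay above all other libraries, at levels near 1 FPKM, with log2 fold changes of 1.62 against controls (standard error 0.49, limma adjusted p=0.447) and 1.12 against wild-type kidneys (standard error 0.27, adjusted p=0.397). Stub1, a ubiquitin ligase that acts on myocardin, was at 67.9 to 70.3 FPKM in mutants and 74.8 to 78.4 FPKM in controls, without overlap, and the wild-type libraries (66.7 to 79.4 FPKM) spanned both.

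Klf4, a repressor of myocardin-driven genes, was at 7.39, 6.62 and 7.20 FPKM in mutants, 14.2, 7.22 and 22.1 in controls and 10.4, 9.45, 10.7 and 13.8 in wild-type libraries. The mutants lay below all wild-type libraries and overlapped with control replicate 2, whereas Myocd in that same control was at 2.62 FPKM, above every mutant. Klf4 and Myocd therefore did not order the libraries alike (r=0.31 over 10 libraries). Twist1, a mesenchymal factor of the same list, was at 13.2 to 15.7 FPKM in mutants and 16.1 to 25.9 FPKM in wild-type libraries (unadjusted p=0.0158, limma adjusted p=0.686). Gata6, which is expressed in vascular smooth muscle, was at 9.27 to 11.6 FPKM in controls, 6.49 to 9.24 in wild-type and 8.26 to 12.6 in mutant libraries.

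Smooth muscle targets of myocardin did not separate the groups. Of 17 genes 13 were tested, with 0 called and 0 at an unadjusted p under 0.05 in all 3 comparisons. In mutant against control kidneys 10 of 13 had a negative log2 fold change, with a median of −0.16 against 0.01 over all genes tested. In control against wild-type kidneys 12 of 13 had a positive value and the median was 0.18, and in mutant against wild-type kidneys it was 0.03. Leaving out 1 library at a time, the median ranged from −0.29 to −0.028 in mutant against control and from 0.046 to 0.29 in control against wild-type kidneys, with the values nearest 0 (−0.028 and 0.046) without control replicate 3.

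Acta2, which encodes α-smooth muscle actin, was at 80.6 FPKM in control replicate 3 and at 22.0 and 16.1 FPKM in the other controls. The mutants (16.1, 22.4 and 20.4 FPKM) and the wild-type libraries (25.3, 23.2, 21.3 and 15.3 FPKM) lay between 15.3 and 25.3 FPKM. Myocd in control replicate 3 was at 2.60 FPKM, beside 3.61 and 2.62 FPKM in the other controls, and above all wild-type and mutant libraries. Over the 10 libraries r between Acta2 and Myocd was 0.39. Tagln, which encodes the actin-binding protein SM22α, was at 4.02 to 12.0 FPKM in mutants, 6.15 to 19.0 in controls and 3.95 to 11.3 in wild-type libraries. The late contractile genes Cnn1 and Myh11 stayed at or below 1.07 and 0.412 FPKM in all libraries and were not tested.

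Tpm1, Pdlim7 and Csrp1 had the smallest unadjusted p of the list. Tropomyosin gene Tpm1 was at 160, 156 and 175 FPKM in mutants and 184, 171 and 260 in controls. Pdlim7, a PDZ-LIM protein of actin filaments, was at 29.4 to 39.8 FPKM in mutants and 35.2 to 45.6 in controls, and Csrp1, an SRF cofactor in smooth muscle, at 46.7 to 53.6 and 50.4 to 61.9 FPKM. Mutants and controls overlapped for each.

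Of 18 cytoskeletal targets 17 were tested and 0 called, with a median log2 fold change of −0.13 in mutant against control, 0.0032 in mutant against wild-type and 0.13 in control against wild-type kidneys. Without control replicate 3 the first was −0.027 and the last 0.017. Groups did not overlap for 2 of 17 in each comparison, where the share among all genes was 19.9%, 7.10% and 8.09% in the same order. Zyx, which encodes the focal adhesion protein zyxin, was at 56.7, 52.7 and 73.4 FPKM in controls, above all mutants (49.2, 50.8 and 48.4 FPKM) and all wild-type libraries (47.9 to 51.5 FPKM), the arrangement seen for Myocd (log2 fold change against wild-type 0.28, unadjusted p=0.043, limma adjusted p=0.665). Filip1l, whose window holds the box shown above, was at 6.29, 6.59 and 6.93 FPKM in mutants, below all controls (8.77, 6.96 and 12.6 FPKM) and all wild-type libraries (7.70 to 8.99 FPKM), with limma adjusted p of 0.447 and 0.378. The other 3 genes with a printed box overlapped between all groups: Vcl ranged from 22.8 to 29.6 FPKM over the 10 libraries, Cnn2 from 54.8 to 83.3 FPKM and Myl9 from 44.2 to 74.9 FPKM, the highest Cnn2 and Myl9 being in control replicate 3.

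Ccn2, a matricellular protein gene that also answers to YAP, was at 3.93, 2.21 and 5.82 FPKM in controls, 2.22 to 3.06 in mutants and 1.90 to 2.29 in wild-type libraries. Myh9, which encodes the heavy chain of non-muscle myosin IIA, was at 76.1, 71.6 and 78.6 FPKM in mutants and 73.6, 64.1 and 54.3 in controls. The 2 groups overlapped for both genes.

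Immediate early targets, which SRF activates with the ternary complex factors, had 7 of 11 genes tested in mutant against control kidneys, with 0 called, 0 at an unadjusted p under 0.05 and a median log2 fold change of 0.02. Ier2 ranged from 25.6 to 33.3 FPKM, Mcl1 from 59.2 to 66.6 FPKM and Nr4a1 from 1.79 to 2.74 FPKM over the 10 libraries. Their groups overlapped in mutant against control kidneys.

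**Figure D4:**
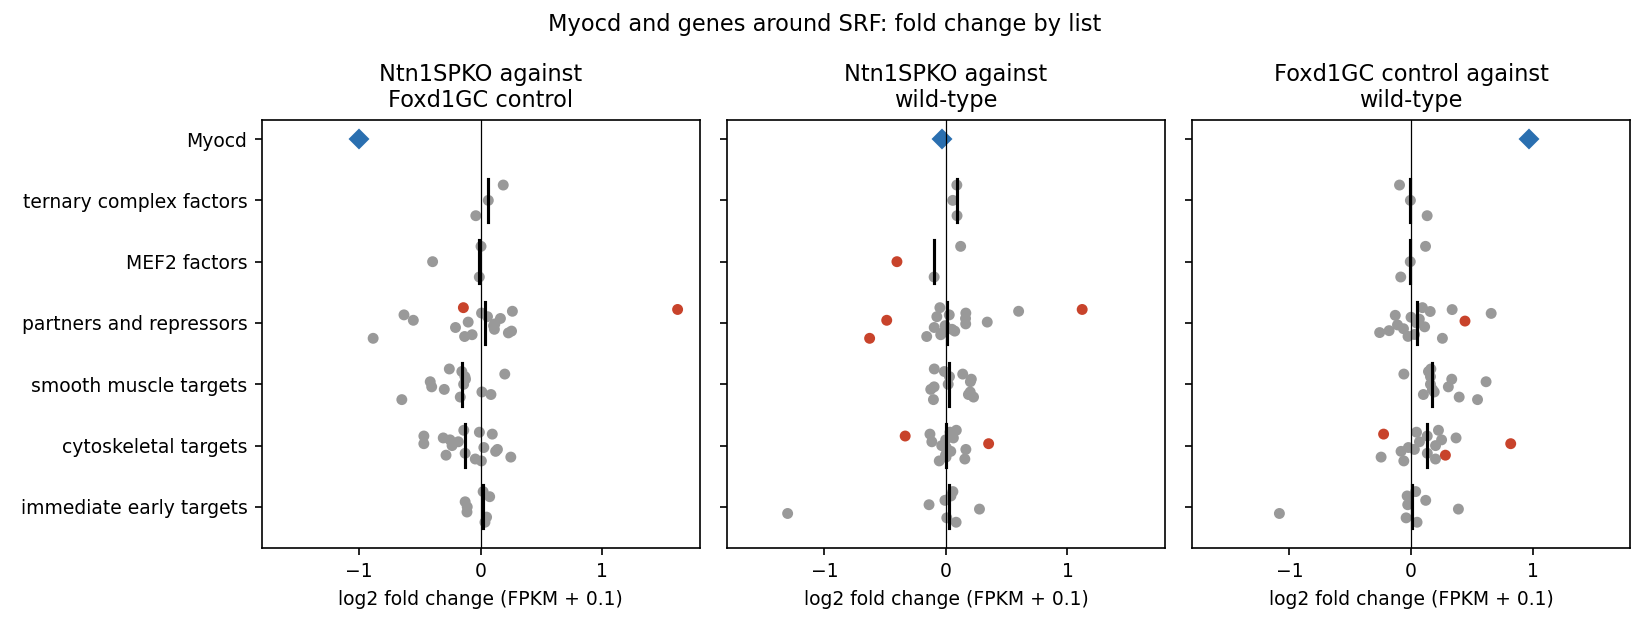
Log2 fold change (horizontal axes, FPKM + 0.1) in the 3 comparisons for Myocd (diamond) and each tested gene of 6 lists (points, red at an unadjusted limma p under 0.05), with the list median as a vertical bar. Myocd lies at −0.9997, −0.03 and 0.97, and the medians of the smooth muscle targets at −0.16, 0.03 and 0.18.

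Since myocardin is restricted mainly to cardiac and smooth muscle lineages, markers of cardiac muscle and of other cell types were set beside it. Of the 10 cardiac markers, Nppa was listed at 0 in all 10 libraries, Nkx2-5 was at most 0.0306 FPKM, Nppb at most 0.122 FPKM and Myh6 at most 0.221 FPKM. Tnni3 was at 1.29 to 4.55 FPKM, Myl7 at 0.681 to 1.29 FPKM and Myl2 at 0.145 to 0.871 FPKM. Cardiac markers summed to 19.4 to 184 FPKM in controls, 10.9 to 21.5 in mutants and 26.7 to 48.3 in wild-type libraries, mostly through Actc1 (4.71 to 146 FPKM), which developing skeletal muscle also expresses. Actc1 was at 35.6, 13.1 and 146 FPKM in controls and 11.7, 4.71 and 13.9 in mutants. Tnnt2 and Myh7 were at 1.24 to 2.50 and 0.576 to 1.12 FPKM in mutants and reached 25.1 and 6.996 FPKM in control replicate 3.

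Skeletal muscle markers summed to 163.8, 117, 92.9 and 117 FPKM in wild-type, 178, 48.5 and 817 FPKM in control and 66.3, 12.9 and 44.7 FPKM in mutant libraries. The mutants were the lowest group, and control replicate 2 lay among them while its Myocd did not. Myog, a determinant of skeletal muscle, was at 5.12, 1.18 and 30.04 FPKM in controls, 0.707, 0.379 and 0.904 in mutants and 2.34 to 5.62 in wild-type libraries, and Myod1 (0.488 to 8.40 FPKM in controls) and Acta1 (3.44 to 72.6 FPKM) were arranged alike. Over the 10 libraries r between Myog and Myocd was 0.51. The part of muscle tissue in the Myocd values was not tested beyond the fits without control replicate 3.

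Ureteric mesenchyme, the source of smooth muscle of the ureter, summed to 73.0 to 98.1 FPKM in controls, 67.2 to 93.9 in mutants and 67.8 to 93.2 in wild-type libraries over 5 markers, with the groups overlapping. Its marker Tbx18 was at 17.1, 10.5 and 10.3 FPKM in controls, 8.27, 7.08 and 12.4 in mutants and 11.5, 8.53, 9.38 and 4.32 in wild-type libraries. Tbx18 and Myocd were highest in control replicate 1 and lowest in wild-type replicate 4 (r=0.86 over 10 libraries), and the log2 fold change of Tbx18 in mutants against controls was −0.44 (limma adjusted p=0.491). Ptch1 (28.0 to 43.4 FPKM), the hedgehog receptor gene, overlapped between all groups. The share of ureteric tissue in each dissection was not tested.

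Mural and pericyte markers summed to 88.8 to 111 FPKM in controls, 95.7 to 103 in mutants and 97.6 to 111 in wild-type libraries. Ren1, the renin gene of mural precursors, was at 7.94, 2.39 and 3.70 FPKM in controls, above all mutants (1.79, 1.31 and 1.84 FPKM), and at 1.60, 1.43, 8.91 and 2.173 FPKM in wild-type libraries (log2 fold change against controls −1.29, limma adjusted p=0.447). Kcnj8, a pericyte potassium channel gene, was at 2.72 to 3.91 FPKM in mutants and 3.74 to 5.39 in controls, and Pdgfrb, a pericyte receptor gene, at 18.1 to 19.0 and 14.1 to 17.7 FPKM. Pdgfrb in wild-type libraries, at 14.9 to 21.1 FPKM, spanned both groups. Mutants and controls did not overlap for 2 of 9 tested markers, Ren1 (lower in mutants) and Pdgfrb (higher). The share without overlap among all genes was 19.9%.

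Stromal markers summed to 913 to 1404 FPKM in controls, 937 to 984 in mutants and 918 to 1039 in wild-type libraries. Foxd1, the gene at whose locus Cre was placed, was at 19.7, 14.6 and 25.6 FPKM in controls, 14.3, 15.4 and 14.2 in mutants and 24.1, 21.3, 21.4 and 30.7 in wild-type libraries (r=−0.13 with Myocd). Col1a1 was at 548, 240 and 564 FPKM in controls, 231 to 290 in mutants and 233 to 321 in wild-type libraries, and Dcn, which encodes decorin, at 33.9 to 97.7, 28.8 to 51.9 and 32.6 to 56.4 FPKM. Both were high in control replicates 1 and 3 and within the range of the other groups in replicate 2, whereas Myocd in replicate 2 was above those groups. Over the 10 libraries r between Col1a1 and Myocd was 0.60. The part of stromal cells in the Myocd values was not tested.

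The nephron progenitor genes Sall1 and Eya1 were at 56.3 to 70.7 and 63.4 to 73.8 FPKM in mutants and at 46.7 to 57.7 and 57.1 to 64.4 FPKM in controls, and Pax2, a gene of kidney epithelia and their progenitors, was at 60.8 to 71.6 and 31.2 to 62.2 FPKM.

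**Figure D5:**
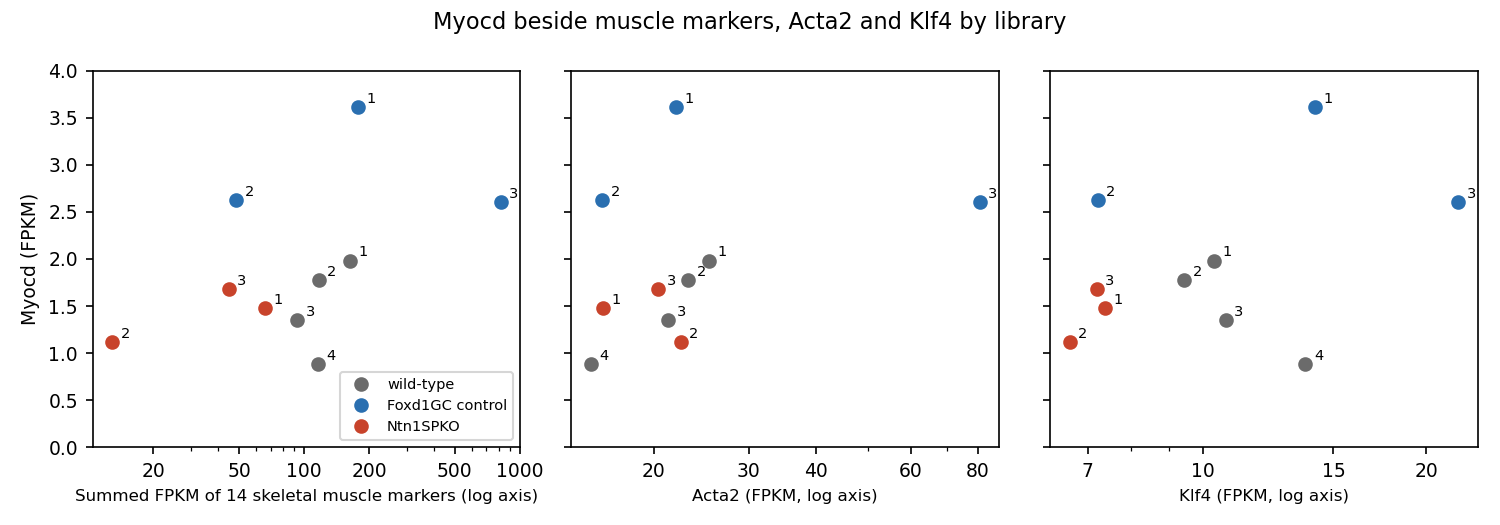
Myocd (vertical axes, FPKM) in each library, numbered by replicate, against the summed FPKM of 14 skeletal muscle markers, Acta2 and Klf4 (horizontal log axes). Foxd1GC control replicate 3 stands at the right of every panel, at 817, 80.6 and 22.1 FPKM. Its Myocd level is 2.60 FPKM, beside 3.61 and 2.62 FPKM in the other controls.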

How the data were processed

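Whole-kidney RNA-seq of 10 libraries at E13.5 was analysed. The authors estimated transcript abundance with Salmon against Ensembl GRCm38 coding sequences, imported it with tximport and tested it with DESeq2, and deposited FPKM values per gene. The Salmon version is not given in the sources used here, and the submitters' processing notes name bcl2fastq 2.17.1.14. Low values showed no clear steps of whole fragments, so no reads were recovered. A search for steps between 15000000 and 70000000 fragments per library gave best depths of 28000000 to 67000000, and one between 20000000 and 50000000, a range narrowed after the first answer was seen, 28000000 to 34000000. Scores were 0.0829 to 0.256 (1 for whole steps), the answer moved with the range, and no depth or counting error was taken from either. FPKM built on coding sequences divides by coding length.

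Groups came from the labels. log2(FPKM + 0.1) was tested, for genes averaging 0.5 FPKM or more in the libraries of a fit, per comparison with limma 3.58.1 (R 4.3.3, intensity trend), with Benjamini-Hochberg adjustment over all genes tested. Fold changes are on this scale, which understates those of low genes. Exact two-sided permutation tests used the same values. In all, 12 member tests were made (4 genes, 3 comparisons), and the code was tested on simulated data.

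The members and the 14 gene lists were chosen with earlier results of these data known, so no list is independent support, and 1 list and 1 further list gene are not reported here. The text names the members, any called gene of a list or else its 3 genes of smallest p in mutant against control kidneys, and Acta2, Tagln, Cnn1, Myh11 and Klf4. Other genes (Ntn1, Ret, Calb1, Wnt9b, Six2, Cited1, Twist1, Gata6, Ccn2, the cardiac markers beyond that rule, and the genes of the printed windows) were named after their values were seen. Likeness was ranked over genes averaging 1 FPKM or more. The sex list served to find libraries with Y-linked transcripts. These were libraries in which Ddx3y, Eif2s3y, Kdm5d and Uty summed to more than 10 FPKM. The libraries counted as without them held 0.210 to 1.02 FPKM. Windows came from RefSeq GRCm38.p6 and matched 3 of 4 members.

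Alternatives were other pseudocounts (0.01 and 1), no filter, no trend, rescaling to the same total, quantile normalization, 1 fit of all libraries, a replicate block, sex as a covariate and leaving out each library. Fits within 1 sex, and fits without both libraries that stood apart, were chosen after seeing the data.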

Additional observations from a re-analysis of the deposited data

Results flagged for a closer look

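Of 47 genes checked for a wild-type library far from the other 3 (Dixon's criterion for 4 libraries at 95%), 6 were picked out. Chance picks out about 1 in 20 such groups. None of the 4 SRF genes was among them. Csrp1 was at 44.7 FPKM in wild-type replicate 4, below 51.8 FPKM in the nearest library. Actc1 (38.1 FPKM, nearest 19.9) and Myog (5.62 FPKM, nearest 2.76), both muscle genes, were high in replicate 1. In replicate 3, Ren1 was high at 8.91 FPKM (nearest 2.173) and Pax2 was low at 45.5 FPKM (nearest 60.7). Cnn1 was high in replicate 2, at 1.07 FPKM against 0.223 FPKM in the nearest library.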

How the results depend on the processing

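Myocd kept its direction in mutant against control kidneys in all 18 alternatives (−1.12 to −0.70, limma adjusted p 0.149 to 1) and in control against wild-type kidneys in all 19 (0.67 to 1.11, adjusted p 0.223 to 1.00), and reached an adjusted p under 0.1 in none. The fits by sex in mutant against control kidneys set 3 mutants against a single male control, replicate 2. No member was called under any alternative, and Mrtfa (−0.27 to −0.044) and Mrtfb (0.0096 to 0.20) kept their sign in mutant against control kidneys, with the values nearest 0 under sex as a covariate. Small values changed sign. In mutant against control kidneys Srf was −0.074 both with sex as a covariate and in male embryos, and leaving out 1 library gave −0.032 to 0.069. In mutant against wild-type kidneys Myocd was 0.021 at the same total FPKM, 0.028 after quantile normalization and 0.050 both with sex as a covariate and in male embryos, and −0.25 to 0.12 over libraries left out. Mrtfa was 0.041 at the same total FPKM, 0.083 with the replicate block, and 0.36 with sex as a covariate or in male embryos, and −0.14 to 0.083 over libraries left out. Without control replicate 3 and wild-type replicate 3 Srf was −0.037 and Mrtfb −0.055, and leaving out 1 library gave −0.037 to 0.19 and −0.055 to 0.14. In control against wild-type kidneys Srf was −0.064 without both these libraries and −0.11 in female embryos, with −0.058 to 0.17 over libraries left out, and Mrtfb −0.19 to 0.047.

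The counts of genes called over all genes (8 in mutant against control, 7 in mutant against wild-type and 1 in control against wild-type kidneys) moved more. In that order they were 21, 18 and 9 without the filter, 0, 0 and 0 with all 10 libraries in 1 fit, 20, 17 and 11 without both libraries, and 1551, 832 and 1031 at an unadjusted p under 0.05 with no fold limit. Sex as a covariate gave 4 in mutant against control and 187 in mutant against wild-type kidneys, male embryos alone 2 and 165, and female embryos alone 17 in control against wild-type kidneys. In mutant against wild-type kidneys pseudocount 1 gave 2 and no intensity trend 12. In control against wild-type kidneys pseudocounts 1 and 0.01 each gave 2 and no intensity trend 4. Leaving out 1 library gave 3 to 78, 1 to 20 and 3 to 20, the highest counts being without control replicate 2, wild-type replicate 4 and control replicate 2. The causes were not tested.

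Replicate numbers did not pair the libraries (correlations of deviations −0.05 to 0.08). With the replicate block, mutant against control kidneys had 4 genes called and control against wild-type kidneys 0, and Myocd was −0.9997 (adjusted p=0.444) and 0.75 (adjusted p=0.617).

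Each arm has 3 or 4 libraries and no read depth is stated or was recovered, so no counting error is given for Myocd at 0.882 to 3.61 FPKM. Wild-type replicate 3 is the only male wild-type library, so sex and that library cannot be told apart there, and in male embryos it and control replicate 2 each stand alone and are assumed to vary like the mutants.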
